A study of Mus musculus with 16 samples.

Results

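Gene expression was compared between 4 wild type BALB/cCrl embryos and 4 wild type FVB/N embryos, 8 of the 16 mouse embryos of a study of the chromatin gene Cecr2. All probe sets of the array entered the comparison, and no measured value was used to choose the embryos. BALB/cCrl stands for BALB/cAnNCrl, kept as a colony at the University of Alberta and founded with Charles River mice, and FVB/N mice were from the Jackson Laboratories. Each array held the total RNA of 1 whole female embryo with 11 to 14 somites, a stage before the cranial neural tube closes, freed of its extraembryonic membranes. Genotype was labelled wild type for all 8 embryos, although the embryo numbers of the BALB/cCrl wild types carry the name of the gene trap line. The other 8 embryos, 4 per strain, were homozygous for the gene trap allele Cecr2Gt45Bic, which had been backcrossed onto each strain for over 10 generations. These mutants served as a second set of embryos of the same strains, entered the fit that sets the spread, and gave the interaction with genotype. BALB/cCrl mutants came from heterozygous parents and FVB/N mutants from homozygous parents. The labels give neither the somite number of each embryo nor its litter, so stage, litter and strain cannot be told apart, and p-values measure the spread between these embryos.

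As background, inbred strains are fixed for different alleles at many loci, and embryos of different strains can respond differently to the same mutation. Cecr2 encodes a bromodomain protein of ISWI chromatin remodelling complexes, and its loss leads to exencephaly, an open cranial neural tube, far more often on BALB/c than on FVB/N. The strain difference before neural tube closure is therefore the background on which the mutation acts. An Affymetrix probe set is a group of short probes for one stretch of a transcript. Sequence variants under the probes and alternative transcript ends enter its value beside the transcript's level, and these cannot be told apart in these data. In whole embryos, fewer cells of a type and less RNA per cell cannot be told apart either.

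The 8 arrays were alike in overall level, and strain was their main axis. Values are log2 expression values as deposited, and differences are given as BALB/cCrl minus FVB/N throughout. The fold in the authors' deposited 4-group table is signed the other way, FVB/N over BALB/cCrl. Pearson correlations over all probe sets lay between 0.996 and 0.998 within a strain and between 0.993 and 0.994 across strains. Of the variance among the 8 arrays, 50.6% lay along a first principal component that set the strains apart and 11.3% along the next. Median levels of the arrays lay between 6.35 and 6.39. Probe sets of Y-linked genes, which female embryos lack, read up to 5.80 on the log2 scale when probe sets with an x or s suffix were set aside. That level is used below as the mark of a signal near background.

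Cecr2 itself did not pass the test between the wild type strains. Probe set 1431014_at read 8.40, 8.22, 7.81 and 8.51 in the BALB/cCrl embryos and 8.59, 8.71, 8.09 and 8.74 in the FVB/N embryos, a difference of -0.30 ± 0.25 (SE, limma, adjusted p = 0.578). The other probe set, 1457039_at, differed by 0.07 ± 0.11 (limma, adjusted p = 0.811). The strains overlapped at both.

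BALB/cCrl wild type 1 stood apart from the other wild types. Among the probe sets that differed at least 2-fold between the strains, it lay nearer the FVB/N mean than the mean of its own strain at 19, against 1 to 6 in the other BALB/cCrl wild types and 0 to 2 in the FVB/N wild types. BALB/cCrl mutant 4 did so at 17, and 14 probe sets were common to both embryos. Of the 19 probe sets, 11 belonged to a gene with a known position, 8 on chromosome 17 and 3 on chromosome 3. The same chromosomes held 21 and 6 of the 235 placed probe sets with a difference of at least 2-fold. BALB/cCrl wild type 1 also exceeded all other 7 wild types at least 2-fold at 18 probe sets, and 16 of these stood out in the same way in BALB/cCrl mutant 4. They included Prap1, a secreted protein of uterine epithelium, and the granzymes Gzma, Gzmc, Gzmd, Gzme, Gzmf and Gzmg, proteases of uterine natural killer cells among others. Prap1 (1419167_at) read 9.74 in BALB/cCrl wild type 1 and 5.15 to 5.47 in the other 7 wild types. The mean level over 21 genes of trophoblast and decidua was 6.04 in this embryo and 5.34 to 5.61 in the other 7, and 7 of the 21 were highest in it. Tpbpa, a defining gene of trophoblast, was near background in both strains (means 3.92 and 3.83). These strain means do not give its level in BALB/cCrl wild type 1 alone. The part of this embryo in the results was measured by leaving it out, and the values without it stand beside the genes at which it stood apart.

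**Figure D1:**
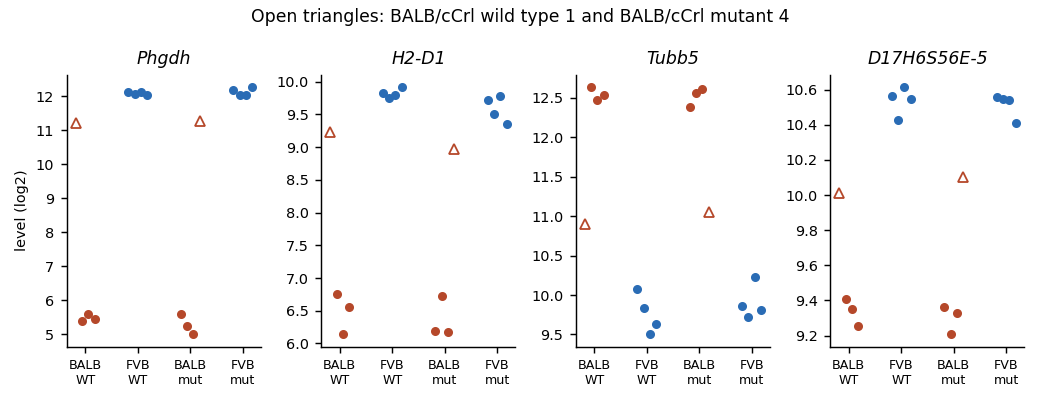
Levels (log2, vertical axis) of 1 probe set each of Phgdh, H2-D1, Tubb5 and D17H6S56E-5 in all 16 embryos, by group. Each point is 1 embryo. The open triangles, BALB/cCrl wild type 1 and BALB/cCrl mutant 4, lie between the other embryos of their strain and FVB/N in all 4 panels. At Phgdh, BALB/cCrl wild type 1 read 11.23, against 5.38 to 5.60 in the other BALB/cCrl wild types.

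Of 45037 probe sets, 3036 differed between the wild type strains at a Benjamini-Hochberg adjusted p under 0.05 in limma, or 6.74%. Of these, 1296 were higher in BALB/cCrl (2.88% of all) and 1740 were lower (3.86%). The embryos of one strain did not overlap those of the other at 2881 of the called probe sets, against 15.0% of all probe sets. Most differences were small. A difference of at least 1.5-fold was reached by 939 called probe sets, of at least 2-fold by 342 (180 higher and 162 lower) and of at least 4-fold by 74 (45 higher and 29 lower). Without BALB/cCrl wild type 1, 2543 probe sets were called.

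The same contrast in the 8 mutant embryos, which share no array with the wild types but were normalised together with them, called 4861 probe sets (10.8%). Of the 3036 probe sets called in wild types, 2887 (95.1%) had the same direction in the mutants, against 64.8% of all probe sets. The mutants called 2042 of them the same way and 6 the opposite way. The largest differences recurred most often, with 332 of the 342 probe sets of at least 2-fold called the same way. In the gcRMA table deposited for this pair of groups, 1527 of 45101 probe sets were called by the same test (3.39%). Of the 3036, 2959 had the same direction there and 1297 were called the same way, and none was called the opposite way. Among the 342 of at least 2-fold, 290 were called in that table too. The gcRMA values come from the same 8 arrays and are a check of the processing, not of the embryos.

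Genes were then sorted by whether their probe sets agreed. Of 9010 genes with 2 or more probe sets, 1424 had at least 1 called probe set. In 125 genes every probe set was called in one direction, higher in BALB/cCrl for 45 genes and lower for 80. In 215 genes several but not all probe sets were called in one direction. In 986 genes exactly 1 probe set was called, higher for 381 and lower for 605. In 98 genes probe sets were called in both directions. Of the genes with a single probe set, 505 were called, 221 higher and 284 lower. Called probe sets of the 125 agreeing genes were called the same way in the mutants in 81.8% of cases, those of genes with exactly 1 call in 57.7%, and those of single probe set genes in 68.1%. The share was 76.8% for genes called in both directions and 68.3% where several but not all were called. In the same order, the median folds of these called probe sets were 1.41, 1.31, 1.32, 1.43 and 1.33. The part of fold size in these shares was not tested.

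The 125 agreeing genes had 2 to 5 probe sets each, and in 110 of them the strains did not overlap at any probe set. Of all called probe sets 94.9% did not overlap, so this count is not particular to agreeing genes. In 10 genes every probe set differed at least 2-fold and in 34 at least 1.5-fold. All probe sets had the same direction in the mutants for 122 genes and were all called the same way for 89. In the gcRMA table the direction held at every probe set for 124 genes, and all were called for 38. Leaving out 1 wild type embryo at a time left 87 to 105 agreeing genes, the lowest number without FVB/N wild type 2, and 95 without BALB/cCrl wild type 1.

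Agreeing genes were ranked by the probe set with the smallest difference. Among those higher in BALB/cCrl the first was Gm6958, a predicted gene on chromosome 16. Its probe set 1426936_at read 10.44, 10.59, 8.98 and 10.97 in BALB/cCrl and 4.85, 4.99, 5.36 and 4.70 in FVB/N, a difference of 5.27 ± 0.33 (limma, adjusted p = 6.93e-10), and the other differed by 3.46. All FVB/N embryos lay near background at the first probe set, and BALB/cCrl wild type 3 was the lowest of its strain. Usp22 encodes the deubiquitinase of the SAGA coactivator complex. Its brighter probe set 1437151_at read 11.83, 11.94, 11.67 and 11.85 in BALB/cCrl and 10.36, 10.37, 10.32 and 10.41 in FVB/N (1.46 ± 0.06, limma, adjusted p = 2.14e-12). The strains were far apart relative to their spread, and the second probe set differed by 1.13. Aph1b, a subunit of the gamma-secretase that cleaves Notch receptors, differed by 1.35 and 1.93, with FVB/N at or under the background mark. Its probe set 1435793_at was not called in the gcRMA table (limma, adjusted p = 0.227). Lsm11 of the U7 ribonucleoprotein, which processes histone transcripts, differed by 2.25 and 0.72, and the small nucleolar RNA host gene Snhg16 by 2.27 and 0.94. At Lsm11 and Snhg16 the probe sets thus differed in size.

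Casp9 was the agreeing gene with a known part in neural tube closure. It encodes the initiator caspase of mitochondrial apoptosis, and mice without it show cranial neural tube defects. Probe set 1437537_at read 8.76, 8.97, 8.59 and 8.77 in BALB/cCrl and 8.04, 7.92, 7.98 and 8.14 in FVB/N, a difference of 0.75 ± 0.08 (limma, adjusted p = 2.29e-06). The other probe sets differed by 0.93 and 1.10, and the strains did not overlap at any of the 3. In the mutants the differences were 0.92, 0.86 and 1.05, all called. Tceanc2 (1.70 and 1.00), Zfp267 (1.85 and 0.72), Klhdc4 (1.10 and 0.59) and Mccc1, which encodes a subunit of the leucine-degrading methylcrotonyl-CoA carboxylase (0.59 and 0.89), complete the 10 highest.

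Arl2bp, whose product binds the small GTPase ARL2, came first by the same ranking in the other direction. Snx6, a sorting nexin named after its values were seen, held 1 wider probe set among its 4, with sizes of 0.24 to 5.41. Probe set 1417112_at of Arl2bp read 7.62, 7.64, 7.40 and 7.57 in BALB/cCrl and 11.13, 11.10, 11.15 and 11.28 in FVB/N. This is 12.2-fold lower in BALB/cCrl (-3.61 ± 0.07, limma, adjusted p = 1.47e-17). The second probe set of Arl2bp gave -3.39, and the mutants gave -3.77 and -3.32. Arhgap19, a GTPase-activating protein, read 6.88, 6.76, 6.75 and 6.65 against 9.42, 9.49, 9.33 and 9.26 at 1434911_s_at (-2.61 ± 0.08, limma, adjusted p = 2.78e-14). Its second probe set gave -1.73, with BALB/cCrl under the background mark, and was not called in the gcRMA table (limma, adjusted p = 0.172). Sumf2, a homologue of the sulfatase-modifying enzyme SUMF1, gave -1.94 and -1.63. Each of these genes showed strains that did not overlap and mutants with a difference of the same sign.

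Alcam, an adhesion molecule of the immunoglobulin superfamily on axons and other cells, was lower in BALB/cCrl at all 5 of its probe sets. Probe set 1437466_at read 7.47, 7.44, 7.40 and 7.35 in BALB/cCrl and 8.51, 8.63, 8.41 and 8.48 in FVB/N (-1.09 ± 0.08, limma, adjusted p = 2.03e-08). The 5 differences lay between -1.18 and -0.88 and those in the mutants between -1.12 and -0.82. Both size and direction thus agreed across probe sets and embryos in these values. In the gcRMA table the 5 lay between -1.47 and -0.95, and 1443086_at was not called (limma, adjusted p = 0.109). Col4a6, a type IV collagen chain of basement membranes on the X chromosome, gave -1.35 and -1.41. B2m, the light chain of MHC class I, gave -0.74 at both of its probe sets and -0.75 and -0.78 in the mutants. Otub1, a deubiquitinase, gave -1.31 and -0.89 but varied within BALB/cCrl: 1417705_at read 7.67, 7.56, 9.11 and 9.06 there, against 9.58 to 9.76 in FVB/N. D17H6S56E-5 gave -1.03 and -0.98, and -1.20 at the first probe set without BALB/cCrl wild type 1. Gm14057 (-1.07 and -1.14) and Cldn34c1 of the claudin family (-1.99 and -1.06) were the other genes among the 10 lowest, apart from Ldhb. Probe set 1452640_at of Cldn34c1 was not called in the gcRMA table (limma, adjusted p = 0.302).

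Ldhb, the B subunit of lactate dehydrogenase on chromosome 6, agreed across its probe sets but not between wild types and mutants. Probe set 1434499_a_at read 8.81, 8.85, 8.72 and 8.76 in BALB/cCrl and 10.40, 10.44, 10.65 and 10.53 in FVB/N, a difference of -1.72 ± 0.09 (limma, adjusted p = 2.53e-11). The 4 probe sets gave -1.43 to -1.72. In the mutants this probe set read 8.87 ± 0.12 in BALB/cCrl and 9.05 ± 0.20 in FVB/N (SD, n = 4 embryos each), and the 4 differences lay between -0.21 and -0.12, none called. The strain difference in wild types minus that in mutants was -1.54 ± 0.12 at this probe set (limma interaction, adjusted p = 1.97e-06). FVB/N mutants thus read near the level of BALB/cCrl, and FVB/N wild types stood above the other 3 groups.

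**Figure D2:**
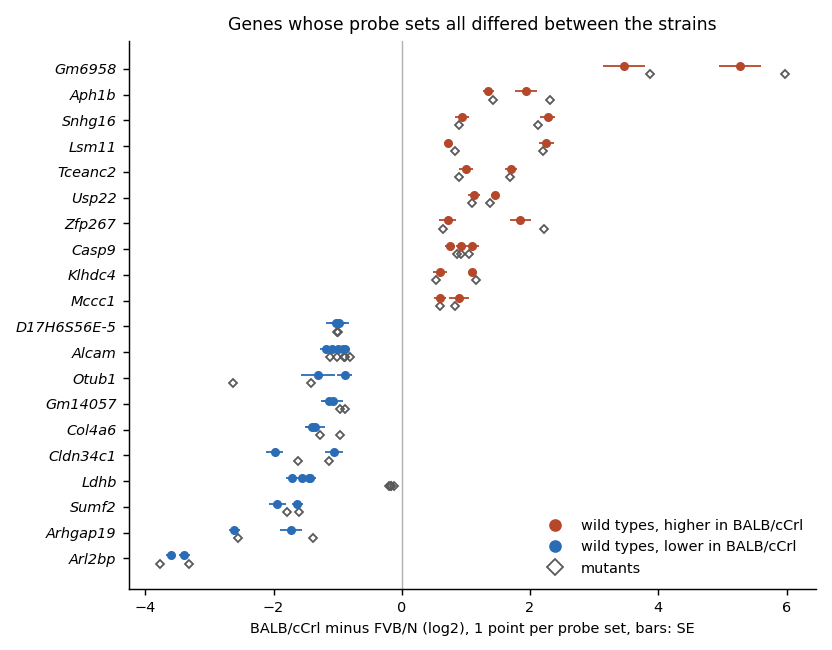
Difference between the strains (BALB/cCrl minus FVB/N, log2, horizontal axis) at each probe set of the 20 agreeing genes with the largest smallest difference, 10 in each direction. Filled points are wild types with SE bars and open diamonds are mutants. Probe sets of a gene lie on one side of 0, and Ldhb is the gene whose mutants lie near 0, between -0.21 and -0.12.

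Of the 986 genes with exactly 1 called probe set, 580 (58.8%) had another probe set that was brighter, by a median over all 986 genes of 0.44 on the log2 scale. Among the 69 genes whose single call was at least 2-fold, this held for 57 (82.6%), and the brightest other probe set lay a median of 3.17 above the called one. The brightest other probe sets of these 69 genes differed between the strains by a median of 0.09 in size, against 1.41 for the called probe sets. No such share was computed for other genes, so none of these values is particular to genes with 1 call. Over the 986 genes, 62.1% of the other probe sets pointed the same way as the called one. In 190 genes all other probe sets lay at or under the background mark.

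Abce1, which recycles ribosomes, was the highest of these genes in BALB/cCrl. Its probe set 1442071_at read 8.30, 8.15, 8.46 and 8.58 in BALB/cCrl and 5.22, 5.35, 4.55 and 5.03 in FVB/N (3.34 ± 0.14, limma, adjusted p = 1.41e-12). The probe sets 1416015_s_at and 1416014_at, with mean levels of 12.18 and 11.48, differed by 0.04 and 0.05 and overlapped between the strains. Mcm5, a subunit of the replicative helicase, had the same form, with 2.85 at a dim probe set and 0.06 and -0.07 at the bright ones. Thg1l, which adds the guanosine at the end of histidine tRNA, was the exception among the highest, since its called probe set (3.27) was brighter than its other one (0.17). Cibar1 (2.77 against 0.02), Ttc3, a ubiquitin ligase (2.41 against -0.05 at its brightest probe set), and the beta-tubulin gene Tubb5 (2.38 against 0.05) followed. At Tubb5, BALB/cCrl wild type 1 read 10.90 and the other BALB/cCrl embryos 12.47 to 12.64, and without it the difference was 2.79.

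Ildr2, an immunoglobulin-like receptor family member, was the lowest gene with exactly 1 called probe set. Probe set 1436894_at read 6.01, 6.49, 6.30 and 5.93 in BALB/cCrl and 10.11, 10.02, 10.02 and 10.10 in FVB/N (-3.88 ± 0.12, limma, adjusted p = 1.18e-14), while the other 2 differed by -0.17 and 0.12. Gnb1, a beta subunit of heterotrimeric G proteins, gave -3.43 at 1425908_at, where BALB/cCrl lay at 3.82 to 4.05 and FVB/N at 7.26 to 7.44. Its bright probe sets gave 0.07 and -0.13. Lman1, a cargo receptor of the endoplasmic reticulum, gave -2.45, and Csnk1a1, a kinase of the Wnt pathway, gave -2.09. Bach2, a transcription factor of lymphocytes, gave -2.01 and the receptor gene Gprc5b had means of 6.19 in BALB/cCrl and 8.19 in FVB/N at its called probe set. The called probe sets of all 12 genes named here were called the same way in the mutants.

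**Figure D3:**
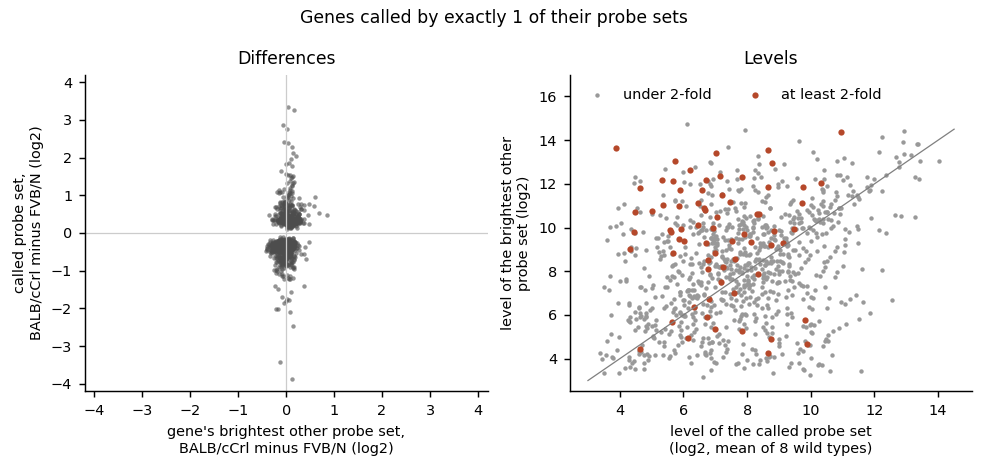
Left, the strain difference (log2) of the called probe set against that of the gene's brightest other probe set, for the 986 genes with exactly 1 called probe set. Right, the mean levels of the same probe sets (log2), with calls of at least 2-fold in red and the line of equal level. Differences of called probe sets reach beyond 3 in both directions while those of the other probe sets lie between -0.42 and 0.85, and 57 of the 69 red points lie above the line.

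Genes measured by a single probe set offered no such comparison. Ifi204, an interferon-inducible gene of the p200 family, read 3.36, 3.17, 3.62 and 3.74 in BALB/cCrl and 8.11, 8.42, 7.89 and 8.33 in FVB/N (-4.71 ± 0.14, limma, adjusted p = 9.45e-15). BALB/cCrl thus lay near background and FVB/N well above it. Rbm45, an RNA-binding protein of the nervous system, read 10.88, 10.82, 10.62 and 10.62 against 7.06, 6.93, 7.05 and 6.43 (3.87 ± 0.16, limma, adjusted p = 9.87e-13). Snhg12 (2.52), Lipo3 (1.90) and 3110045C21Rik (1.89) were also higher in BALB/cCrl. Ttc30b of intraflagellar transport (-2.64), the chemokine gene Ccl27a (-2.33) and Chchd4 of mitochondrial protein import (-1.45) were lower. All 8 were called the same way in the mutants and in the gcRMA table.

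Calls in both directions within a gene were largest at Pdxdc1. Its probe set 1419327_at read 10.36, 10.42, 10.16 and 10.22 in BALB/cCrl and 5.45, 5.93, 6.03 and 5.17 in FVB/N (4.65 ± 0.18, limma, adjusted p = 3.63e-13). Probe set 1452705_at read 6.63, 6.38, 6.67 and 6.83 against 9.93, 9.92, 9.86 and 9.93 (-3.28 ± 0.10, limma, adjusted p = 1.18e-14). The remaining probe sets of Pdxdc1 gave -1.43 and -0.90, so no single direction describes the gene. The zinc finger gene Zfp945 gave 1.44 and -2.45, and Prrc2c gave 1.54 and -1.04 at its most different probe sets.

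H2-D1, a classical MHC class I heavy chain on chromosome 17, was the fourth gene called in both directions. Class I genes are nearly identical over long stretches, and most of its 9 probe sets carry an x suffix, which marks probes shared with other transcripts, so its values are uncertain. Probe set 1425545_x_at read 9.23, 6.76, 6.14 and 6.56 in BALB/cCrl and 9.83, 9.75, 9.80 and 9.92 in FVB/N (-2.65 ± 0.54, limma, adjusted p = 0.00328). Of the BALB/cCrl wild types, number 1 alone lay near FVB/N, and without it the difference was -3.34. BALB/cCrl mutant 4 also lay near FVB/N, at 8.97 against 6.18 to 6.72 in the other BALB/cCrl mutants. The gcRMA table, which holds the same embryo, gave -3.80 with an adjusted p of 0.147 in limma. Probe set 1425614_x_at was higher in BALB/cCrl (1.42 ± 0.14, limma, adjusted p = 7.36e-07). H2-K1 gave -1.79 at 1451931_x_at (-2.18 without BALB/cCrl wild type 1) and -0.01 at its brightest probe set. Of the 19 measured genes of MHC class I and peptide loading, 0 were called higher and 3 lower by their brightest probe set (B2m, H2-D1 and H2-Q2, the last at -0.51 and near background and not called without FVB/N wild types 1 or 4 or BALB/cCrl wild types 3 or 4), against 6.9% of all genes in either direction. The median difference of the list was 0.07. MHC class I molecules present peptides to T cells, and BALB/c and FVB/N carry different class I alleles.

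At Phgdh, the first enzyme of serine synthesis, BALB/cCrl wild type 1 lay nearer the FVB/N embryos than its own strain. Probe set 1454714_x_at read 11.23, 5.38, 5.60 and 5.44 in BALB/cCrl and 12.12, 12.08, 12.13 and 12.06 in FVB/N (-5.18 ± 1.17, limma, adjusted p = 0.00727). Without BALB/cCrl wild type 1 the difference was -6.62 (limma, adjusted p = 9.88e-05). The brightest probe set of the gene differed by -0.16 and the others by -0.30 and -0.12, so the large difference was that of 1 probe set. The gcRMA table gave -7.36 at it, with an adjusted p of 0.141 in limma.

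Gene lists for the tissue and stage were described with each gene represented by its brightest probe set. Over all 18193 genes measured, 494 were called higher (2.72%) and 761 lower (4.18%), with a median difference of -0.00. Of 48 genes needed for cranial neural tube closure in mice, 1 was higher (Casp9) and 3 were lower, and the list's median was -0.04. The lower genes were Pdgfra, a receptor of mesenchyme (-0.29 ± 0.06, limma, adjusted p = 0.00186), Prrx1, a homeobox gene of cranial mesenchyme (-0.54 ± 0.12, limma, adjusted p = 0.00492), and Twist1, a factor that cranial mesenchyme needs for neural fold elevation (-0.39 ± 0.09, limma, adjusted p = 0.0141). Twist1 read 9.79, 9.91, 9.92 and 9.94 in BALB/cCrl and 10.07, 10.39, 10.32 and 10.31 in FVB/N. The strains did not overlap at these 3 probe sets, and in the mutants the differences were -0.15, -0.54 and -0.30. Without BALB/cCrl wild type 1 Twist1 was no longer called (limma, adjusted p = 0.052), nor without FVB/N wild type 2 (limma, adjusted p = 0.060).

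Few genes of the pathways that shape the neural tube were called. Planar cell polarity had 1 lower gene of 25, the formin Daam1 (-0.37). This was the 1 called probe set among the list's 56, so the other probe sets of Daam1 were not called. The hedgehog pathway and floor plate had Kif7, a kinesin that controls Gli factors, at 0.35 and the ligand gene Ihh at -0.38 among 19 genes. The list's median was -0.04. In the mutants 5 of these genes were called higher in BALB/cCrl and 0 lower, with a median of 0.19. Ihh was not called when any single wild type other than BALB/cCrl 1 was left out. Among 24 genes of neural progenitors and early neurons, Neurog1, a proneural factor, was lower (-0.61). It was called at 1 of its probe sets only, and not in the gcRMA table (limma, adjusted p = 0.279). Of 30 actin regulators, 3 were higher: Pfn1, which supplies actin monomers (0.72), the myosin light chain gene Myl9 (0.36) and Tmod1, which caps actin filaments (0.30). Leaving out single embryos left 1 to 3 of these. Pfn1 alone was left without FVB/N wild type 4, and Myl9 was also lost without BALB/cCrl wild type 1 and Tmod1 without FVB/N wild type 3 or BALB/cCrl wild types 1 or 3. Pfn1 alone of the 3 was called in the gcRMA table, and in the mutants it differed by 0.22 (limma, adjusted p = 0.106). By the brightest probe set, none of 13 genes of ISWI remodelling, Cecr2 among them, and none of 33 Hox genes was called in limma on either table of values, with 2 and 4 of them at an unadjusted p under 0.05. Over all 41 probe sets of the ISWI genes, 2 were called lower. A share of called genes near 6.9%, as in most of these lists, is the background level of this comparison.

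Markers of the main tissues were compared next. By the brightest probe set, none of 22 genes of visceral endoderm and yolk sac, 15 of the erythroid line, 20 of endothelium and 24 of hypoxia and glycolysis was called in limma, nor any in the gcRMA table. At an unadjusted p under 0.05 these lists held 1, 4, 5 and 5 genes. In the mutants 5 of the erythroid and 11 of the hypoxia and glycolysis genes were called higher in BALB/cCrl, and without FVB/N wild type 3 there were 3 higher erythroid genes in the wild types. FVB/N wild type 3 was the highest wild type at 11 of the 15 erythroid genes, with a mean level of 9.28 against 8.51 to 9.09 in the others. Its mean over the Hox genes was 7.31, against 7.72 to 7.81. FVB/N wild type 1 was the highest at 13 of the 22 genes of visceral endoderm and yolk sac. Marker levels thus varied within strains, and their part in the results was not tested. Of 22 cardiac muscle genes, 5 were called higher in BALB/cCrl (Myl7, Nppa, Nppb, Tnni1 and Tnnt2), with a median of 0.21 for the list. Myl7, an atrial myosin light chain, read 13.37, 13.26, 13.19 and 12.99 in BALB/cCrl and 13.03, 13.00, 12.74 and 12.58 in FVB/N (0.37 ± 0.08, limma, adjusted p = 0.00858), and the strains overlapped. The mean level over the list was 9.58 to 9.82 in BALB/cCrl and 9.38 to 9.77 in FVB/N. Leaving out single embryos left 1 to 8 cardiac calls: 8 without BALB/cCrl wild type 4, 2 without BALB/cCrl wild type 3 and 1 without BALB/cCrl wild types 1 or 2 or FVB/N wild types 3 or 4. In the mutants the list's median was 0.02, with 0 genes higher and 2 lower, and the gcRMA table called 0 of them. Igfbp1, a decidual gene, was the called member among 21 genes of trophoblast and decidua and was lower in BALB/cCrl (-0.91). It was not called in the gcRMA table (-0.67, limma, adjusted p = 0.680). Neither that table nor the mutants had a called gene in this list.

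Other lists of metabolism and immunity gave single genes. Of 40 genes of glutathione and aldehyde metabolism, 5 were higher in BALB/cCrl and 0 lower. Gstk1, a glutathione transferase of mitochondria and peroxisomes, read 7.66, 7.69, 7.43 and 7.39 in BALB/cCrl and 6.49, 6.48, 6.17 and 6.42 in FVB/N (1.15 ± 0.14, limma, adjusted p = 8.58e-06). Aldh1a3, which makes retinoic acid, gave 0.68 at its brightest probe set but -0.80 at another, both called. Gstm6 (0.79), Gstm2 (0.41) and Gstp1 (0.20) were the others. The list fell to 3 calls without BALB/cCrl wild type 2 or FVB/N wild types 2, 3 or 4, and in the gcRMA table Gstk1 was its 1 call. Of 26 genes of folate and one-carbon metabolism, Mthfd1l, a mitochondrial folate enzyme whose loss causes neural tube defects in mice, was higher (0.31) and Ggh, which trims folate polyglutamates (-0.30), and Phgdh were lower. The call of Ggh was lost without BALB/cCrl wild type 1 or FVB/N wild types 1 or 4, and that of Phgdh at its brightest probe set without any single wild type other than BALB/cCrl 1 and 3. Of 29 interferon genes, Ifi204 was lower and Ifitm3 (0.34), Stat2 (0.39) and Ifitm2 (0.21) were higher. No member was called higher without BALB/cCrl wild types 1 or 2 or FVB/N wild type 3, and 1 or 2 were without each of the others, while Ifi204 was lower in each case.

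The called genes of sterol synthesis and uptake were all higher in BALB/cCrl in the fit of all 16 arrays. The list was written after their values had been seen, so its count is a description only. As background, cholesterol is made from acetyl-CoA through mevalonate and squalene, and the transcription factor SREBP2, encoded by Srebf2, drives most genes of the route. Embryos of this stage need cholesterol for membranes and for the hedgehog ligand, which carries it. Of 27 genes measured, 14 were called higher in BALB/cCrl and 0 lower in limma (51.9%), with a median difference of 0.28, against 2.72% of all genes called higher. Over all their 58 probe sets, 28 were called higher and 0 lower. The mean level of the list was 10.06, 10.25, 10.12 and 10.04 in the BALB/cCrl wild types and 9.90, 9.90, 9.80 and 9.88 in the FVB/N wild types, with no overlap. BALB/cCrl wild type 2 was the highest wild type at 18 of the 27 genes. Among mutants the means overlapped, at 9.94, 9.87, 10.05 and 10.03 in BALB/cCrl and 9.90, 9.83, 9.89 and 9.79 in FVB/N. In the mutants 7 genes were called higher and 1, Hsd17b7, lower, with a median of 0.16. The gcRMA table called 7 higher and 0 lower. At an unadjusted p under 0.05, 19 were higher and 1, Insig1, was lower. Leaving out single embryos left 11 to 16 calls, and 13 without BALB/cCrl wild type 1, and the fit of the 8 wild types alone called 16 higher and 1 lower.

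The promoters of 3 called genes of the route, Hmgcs1, Idi1 and Msmo1, are shown because all were called higher. Each stretch covers 250 bases before and 50 after the transcription start on the gene's own strand, from RefSeq on build GRCm38.p6, which is the C57BL/6J sequence and not that of either strain studied. Capitals mark CCAAT, the box bound by NF-Y, in either orientation (ATTGG on the other strand), and TCACCCCAC, which is close to known sterol regulatory elements.
Hmgcs1 (chr13:119690101-119690400, plus strand): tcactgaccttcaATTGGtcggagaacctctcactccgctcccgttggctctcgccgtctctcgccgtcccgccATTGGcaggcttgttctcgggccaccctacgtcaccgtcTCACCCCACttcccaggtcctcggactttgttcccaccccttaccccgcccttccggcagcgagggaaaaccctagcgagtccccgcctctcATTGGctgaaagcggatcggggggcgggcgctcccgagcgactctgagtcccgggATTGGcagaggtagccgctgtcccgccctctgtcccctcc
Idi1 (chr13:8885356-8885655, plus strand): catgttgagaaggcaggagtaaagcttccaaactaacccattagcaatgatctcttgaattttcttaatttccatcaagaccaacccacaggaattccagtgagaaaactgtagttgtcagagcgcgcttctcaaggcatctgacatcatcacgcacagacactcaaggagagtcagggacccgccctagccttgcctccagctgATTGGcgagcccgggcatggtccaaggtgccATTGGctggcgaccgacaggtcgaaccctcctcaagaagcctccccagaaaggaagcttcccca
Msmo1 (chr8:64733529-64733828, minus strand): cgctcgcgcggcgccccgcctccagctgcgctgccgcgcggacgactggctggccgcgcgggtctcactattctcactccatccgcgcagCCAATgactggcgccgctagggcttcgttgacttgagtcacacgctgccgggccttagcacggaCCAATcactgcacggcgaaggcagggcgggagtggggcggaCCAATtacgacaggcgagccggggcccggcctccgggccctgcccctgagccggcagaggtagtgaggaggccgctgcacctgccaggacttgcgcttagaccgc
The windows held 4, 2 and 3 copies of CCAAT, respectively, and TCACCCCAC was found in that of Hmgcs1. Promoters in the table matched 21 of the 27 genes measured, and 19 of these held CCAAT in at least 1 promoter, against 41.1% of all 27025 genes in the table. Of the 21 genes, 10 were called higher and all 10 held CCAAT, so uncalled genes of the list held it too. TCACCCCAC was in 1 of the 21 and in 0.614% of all genes. The motifs do not overlap each other in these windows. A match is a stretch of letters and was not tested as a binding site.

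Hmgcs1, which makes the precursor of mevalonate, was called higher at all 5 of its probe sets, with differences of 0.43 to 0.91. Probe set 1433445_x_at read 12.48, 12.64, 12.72 and 12.51 in BALB/cCrl and 12.15, 12.23, 12.10 and 12.17 in FVB/N (0.43 ± 0.07, limma, adjusted p = 0.000664). Idi1, which makes the isoprenoid building block dimethylallyl diphosphate, read 11.58, 11.88, 11.73 and 11.63 against 11.20, 11.30, 11.15 and 11.19 at 1451122_at (0.49 ± 0.07, limma, adjusted p = 0.000104), and its second probe set gave 0.58. Msmo1, a demethylation enzyme late in the route, gave 0.60 at its bright probe set. Differences were thus under 2-fold and the strains did not overlap at these probe sets. Srebf2 itself was higher (0.48 and 0.34, the latter not called without wild type 2 of either strain), as were Scd1, the stearoyl-CoA desaturase (0.48 and 0.54), Sqle, the squalene epoxidase (0.39), and Lss, which closes the sterol rings (0.44). Insig1, which holds back SREBP processing, was not called and gave -0.33 (limma, adjusted p = 0.157), and Srebf1 gave -0.07.

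**Figure D4:**
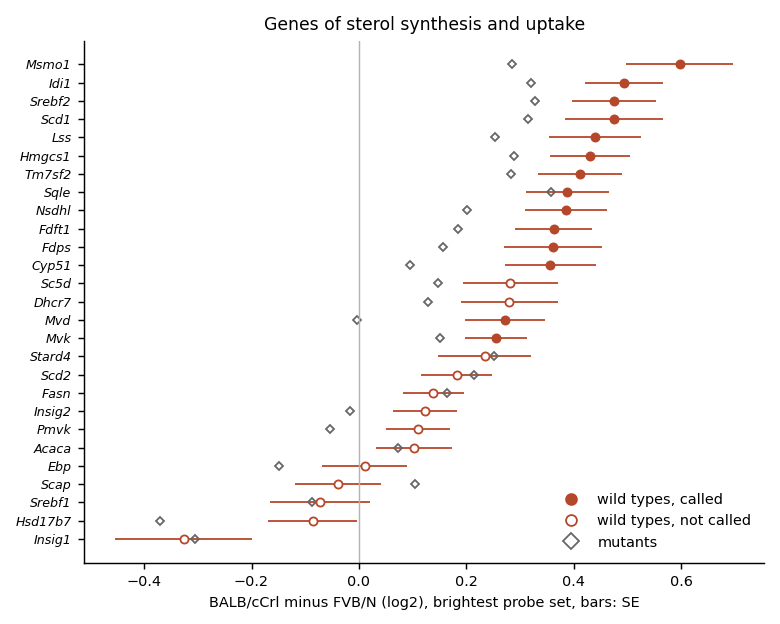
Difference between the strains (BALB/cCrl minus FVB/N, log2, horizontal axis) of the brightest probe set of each of 27 genes of sterol synthesis and uptake. Circles are wild types with SE bars, filled where called (14 genes), and open diamonds are mutants. Wild type differences lie between -0.33 and 0.60, and all filled circles lie above 0.

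Called genes lay on all autosomes and the X chromosome. Of 18031 genes with a position on GRCm38.p6, 6.94% were called by their brightest probe set. Shares on these chromosomes ran from 4.38% on the X chromosome to 10.7% on chromosome 4 (116 of 1087 genes) and 10.3% on chromosome 12 (64 of 622). A reported modifier of the exencephaly of Cecr2 mutants between these strains lies on chromosome 19, where 46 of 609 genes were called (7.55%), 24 higher and 22 lower. Agreeing genes there were Arhgap19, Otub1, Slc29a2, a nucleoside transporter (-0.45 and -0.28), and Ttc9c (-0.47 to -0.63 at 4 probe sets), all lower, and Scd1 and Banf1, a chromatin-binding protein of the nuclear envelope (0.17 to 0.25), which were higher. One probe set of Banf1 was not called without wild types 1 or 2 of either strain, and the second of Slc29a2 not without FVB/N wild types 1 or 4 or BALB/cCrl wild type 1. In the gcRMA table all probe sets of Scd1 and Banf1 were called, but not all of any of the lower genes. Neither probe set of Otub1 (limma, adjusted p = 0.264 and 0.131) or of Slc29a2 (limma, adjusted p = 0.119 and 0.417) was called there. Chromosome 19 thus held 6 of the 125 agreeing genes. Ttc9c and Otub1 lie on the same chromosome, and at both, BALB/cCrl wild types 1 and 2 read lower than 3 and 4: at 1434001_at, Ttc9c read 9.93, 9.99, 10.33 and 10.35 in BALB/cCrl and 10.62 to 10.68 in FVB/N.

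**Figure D5:**
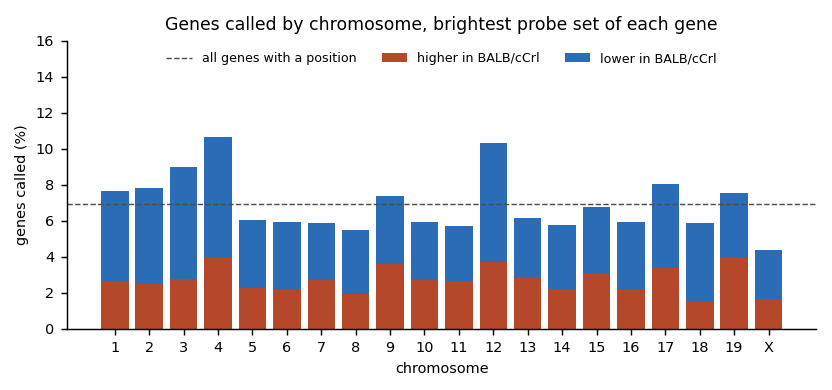
Share of measured genes called between the wild type strains on each chromosome (%), higher in BALB/cCrl in red and lower in blue, with the share over all placed genes (6.94%) as a dashed line. Bars run from 4.38% on the X chromosome to 10.7% on chromosome 4.

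The longest runs of neighbouring measured genes that were all called held 5 genes each. On chromosome 3 from 35754044 to 36170341, Atp11b (0.31), Dcun1d1 (0.75 at its brightest probe set), Mccc1, Acad9 (0.71) and Zfp267 were all higher in BALB/cCrl. Acad9, an assembly factor of respiratory complex I, had a second called probe set at -0.62, and Dcun1d1, a regulator of cullin neddylation, had one at -0.44. On chromosome 4 from 41712033 to 42158846, Dctn3 of the dynactin complex (0.39) and Gm13306 (0.65) were higher, and Rpp25l (-0.21), Galt, an enzyme of galactose breakdown (-0.32), and Ccl27a were lower. Rpp25l was not called without BALB/cCrl wild type 4. By the brightest probe set of each gene, the first run had 1 direction and the second had both. Acad9 and Dcun1d1 in the first run were themselves called in both directions.

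The strain difference depended on the Cecr2 genotype at few probe sets. The interaction was called at 34 probe sets (0.0755%), 27 of them among the 3036. Of the 32 with a known position, 22 (68.8%), from 16 genes, lay on chromosome 6 between 71909053 and 147112778, where Cecr2 itself lies from 120666314 to 120771191. Chromosome 6 held 5.53% of all placed probe sets. Beside Ldhb, H2aj, a histone gene, differed by 2.11 in wild types and 0.20 in mutants, and Clec1b, a receptor of platelets, by 1.29 and -0.37. Emp1 gave -0.91 and -0.03. Away from chromosome 6, Cdk5rap1 differed by 0.25 in wild types and 3.63 in mutants. Mutants carry the gene trap together with the DNA linked to it, and the 2 cannot be told apart here.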

How the data were processed

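Total RNA of single embryos was hybridised to Affymetrix mouse arrays. The values are log2 expression values that the authors deposited for 16 arrays normalised together. RMA and GCRMA are named in the submitters' processing notes, without versions or roles. A gcRMA table of log2 values for this pair of groups was also deposited by the authors. The authors' deposited results tables hold a signed score (a linear fold), log2 fold changes and p-values per probe set, and were used only for signs and counts. Arrays have no depth, and 4 arrays per group limit the precision.

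From there, limma 3.58.1 in R was fitted to all 16 arrays with 1 mean per group and an intensity trend (lmFit and eBayes, two-sided), and p-values were Benjamini-Hochberg adjusted over the 45037 probe sets, with calls at 0.05. Tables were made with Python 3.11.15 and pandas. On simulated data for this comparison over 45037 probe sets, 74% of 100 probe sets changed by 0.5 on the log2 scale and 100% of 100 changed by 1 were called, with 7 false calls. The simulated noise was normal and independent between probe sets, and no other probe sets were changed. Real arrays share deviations across probe sets and hold more differences, so these rates need not hold for them. The gcRMA table was fitted in the same way over its 8 arrays. Genes were assigned through the platform annotation and, by Entrez identifier, RefSeq on GRCm38.p6: 34945 probe sets had a single symbol, giving 18193 genes, and the 932 with several and 9160 without one were left unnamed. A gene in a list or on a chromosome was represented by its brightest probe set over the 16 arrays.

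Genes were named by rule: Cecr2, the 10 highest and 10 lowest agreeing genes with no overlap between the strains by their smallest difference, the 6 and 6 largest with exactly 1 call, the 4 and 4 largest with 1 probe set, the 4 largest called in both directions, up to 4 called members per list, up to 4 agreeing genes per direction on chromosome 19 and the members of the 2 longest runs. Further genes (the sterol genes, the probe sets that set BALB/cCrl wild type 1 apart, the interaction genes, H2-K1, Tnnt2 and Gstp1) were chosen after their values were seen. The members and lists were chosen with earlier results of these data known. Alternatives were quantile normalisation, median centring, no trend, array weights, the 8 wild types alone, the replicate number as a block, a filter on dim probe sets, the gcRMA table, a fold threshold and leaving out each wild type embryo. A second filter and the fit without BALB/cCrl wild type 1 and mutant 4 were added after seeing the data. Replicate numbers did not pair the embryos: deviations of same-numbered embryos correlated by 0.12, 0.03, 0.11 and 0.09.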

Additional observations from a re-analysis of the deposited data

Results flagged for a closer look

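Single wild type embryos lay far from the other 3 of their strain at 28 of 424 combinations of probe set and strain, by Dixon's 95% critical value, which chance passes in about 1 group of 20. BALB/cCrl wild type 1 was the embryo concerned in 10 of the 28, and every other wild type in 2 or 3. The probe sets examined were those of the named genes. Some, such as the 2 of Prap1, were named because this embryo stood apart at them, and H2-K1 was named after its values were seen. Its count is thus partly set by that choice and is a description only. This embryo read 11.23 at Phgdh (1454714_x_at, strain median 5.52), 10.90 at Tubb5 (1455719_at, 12.51), 9.10 at H2-D1 (1451784_x_at, 6.55) and 5.80 at a second H2-D1 probe set (1451683_x_at, 4.37). It read 9.10 at H2-K1 (1451931_x_at, 7.63), 9.74 and 9.17 at the 2 Prap1 probe sets (medians 5.38 and 4.68) and 4.37 at Tdo2, a liver and decidua enzyme (1455770_at, 3.83). The same embryo read 7.76 at Btg2 (strain median 7.64) and 7.33 at Slc29a2 (7.56).

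Other BALB/cCrl embryos stood out by less. Wild type 2 read 11.27 at Sqle (strain median 11.00), 11.61 at Ttc3 (11.82) and 6.60 at Pdgfra (1438946_at, 6.24). Wild type 3 read 7.15 at Arl2bp (1429859_a_at, 7.50) and 7.68 at Lipo3 (8.12). Wild type 4 read 11.12 at Lman1 (11.06) and 6.38 at H2-D1 (1427651_x_at, 5.75).

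Among FVB/N embryos, wild type 1 read 4.64 at Mccc1 (strain median 4.92), 7.20 at Gstm2 (7.16) and 5.84 at Stat2 (6.18). Wild type 2 read 8.51 at Cecr2 (1457039_at, 8.17) and 8.16 at Snhg16 (8.28). Wild type 3 read 6.12 at Hmgcs1 (1441536_at, 6.55), 6.48 at H2-D1 (1451683_x_at, 6.62) and 5.63 at Dcun1d1 (5.86). Wild type 4 read 4.27 at H2-D1 (1451934_at, 4.06), 7.01 at Aldh1a3 (7.29) and 6.49 at Zfp36 (6.38).

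The strain difference of Ldhb was not the same in wild types and mutants. The difference in wild types minus that in mutants was -1.22, -1.54, -1.28 and -1.44 at its 4 probe sets by limma's interaction contrast, each called at an adjusted p under 0.05.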

How the results depend on the processing

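The number of probe sets called was 2873 without an intensity trend, 3007 after quantile normalisation, 3035 after median centring, 3852 with the 8 wild types alone and 4260 with array weights, against 3036. The gcRMA table called 1527 probe sets (742 higher and 785 lower), with 42 agreeing genes and 642 with exactly 1 call, and 42.1% of its values lay at its floor. A further threshold of 1.5-fold left 939 (432 and 507), with 34 agreeing genes and 367 with exactly 1 call. A filter at 6.99, the highest Y-linked probe set, left 602 genes with exactly 1 call and 168 agreeing genes, of which 89 were among the 125 agreeing genes of the report, and a filter at 5.80, the highest Y-linked probe set with no x or s suffix, chosen after seeing the data, left 165 (104 shared). Agreeing genes numbered 183 with array weights (124 shared) and 166 with the 8 wild types alone (119 shared). Leaving out 1 embryo at a time gave 2383 to 2580 calls, 1051 to 1139 higher and 1332 to 1486 lower, with 87 to 105 agreeing genes and 808 to 873 with exactly 1 call. With the replicate number as a block, which does not pair these embryos, 2907 probe sets were called and 126 genes agreed. Median centring moved the share of higher calls from 42.7% to 38.0%. Without BALB/cCrl wild type 1 and mutant 4, 2608 were called and 2397 of the 3036 remained. Of 153 called probe sets of 94 named genes, 93 were called under every alternative that tested them, 35 were lost only in the gcRMA table or with the block, 25 were lost when 1 embryo was left out, and none changed sign past the test in limma under these alternatives. Values under 5.80 lie near background, so folds of dim probe sets are less certain than those of bright ones.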

Other observations

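Called genes were counted along the chromosomes. Of 334 windows of 5 Mb with at least 20 measured genes, 41 held no gene called by its brightest probe set in limma, and the median share was 6.67%. The highest share, 28.0% or 14 of 50 genes, was that of chromosome 4 from 145000001 to 150000000 on GRCm38.p6, where the natriuretic peptide genes Nppa and Nppb lie. The windows were ranked after their values were seen.

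None of 8 genes with textbook alleles in BALB/c or FVB/N and none of 8 X and Y transcripts of sex was called in limma by its brightest probe set, nor any in the gcRMA table, with 1 and 2 of them at an unadjusted p under 0.05. Of 25 immediate early and heat shock genes 1 was higher (Zfp36) and 1 lower (Btg2), but leaving out single embryos left 0 to 1 higher and 0 to 2 lower, and limma on the gcRMA table called 0. At an unadjusted p under 0.05, 3 of them were higher and 5 lower. Of 21 p53 targets and genes of apoptosis 1 was higher (Casp9) and 1 lower (Trp53inp1), and leaving out single embryos left 0 to 1 lower. At an adjusted p under 0.05 the authors' deposited gcRMA comparison held 1418 probe sets, of which 694 had the higher value in BALB/cCrl and 724 in FVB/N, and 1216 were called the same way here.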
